A study of Mus musculus with 10 samples.

Results

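Among the rearranged *Igk* light chains of mouse peritoneal cavity B cells, 156 productive clonotypes were present with at least 2 reads in each of both wild-type B-1a libraries and had no read in either wild-type B-2 library. A clonotype here is a combination of V gene, J gene and CDR3 amino acid sequence, and productive means that the deposited annotation calls the rearrangement in frame and without a stop codon. The 156 were chosen out of 21879 productive combinations seen over all 6 *Igk* libraries, of which 1514 reached 2 reads in both wild-type B-1a libraries. They were chosen by their read counts in the 4 wild-type libraries, and those reads are given below as a description and carry no test. The reverse set, used as control, holds the 257 clonotypes with at least 2 reads in both B-2 libraries and none in wild-type B-1a, and a shared set holds the 977 with at least 2 reads in all 4 wild-type libraries.

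The 3 groups of 2 libraries each were wild-type B-1a cells, B-1a cells of Igll1 knockout (Igll1-/-) mice, and wild-type B-2 cells. All came from the peritoneal cavity of C57BL/6 mice aged 6 to 8 weeks, so the 3 groups share strain, tissue and age. Igll1-/- mice lack a component of the surrogate light chain in every cell, and there was no Igll1-/- B-2 library among those analysed. The comparison asks which light chains B-1a cells hold that B-2 cells do not, and whether they are made without the surrogate light chain.

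The kappa light chain is assembled by joining 1 of many V genes to a J gene, and CDR3 spans the joint. B-1a cells reside in the body cavities, renew themselves there and make natural IgM, and many of them bind phosphatidylcholine. IGKV4-91 and IGKV14-126 are the light chain V genes of the classical phosphatidylcholine receptors, paired with VH12 and VH11 heavy chains.

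The libraries held 207931 to 282442 productive reads, and 56.0% to 57.6% of the productive combinations of a library rested on 1 read. A clonotype with no read in a B-2 library could still hold up to 0.00106% of its productive reads in replicate 1 and 0.00107% in replicate 2, the limit set by 3 reads. No molecular barcode is described, so more cells of a clone and more PCR copies per cell cannot be told apart, and intervals and limits cover counting error only. The labelled cell types were checked on the leading V genes: IGKV4-91 held 12.5% and 12.8% of productive reads in wild-type B-1a, 2.07% and 3.68% in Igll1-/- B-1a, and 1.49% and 1.35% in B-2. IGKV14-126 held 9.41% and 10.5% in wild-type B-1a, 0.257% and 0.268% in Igll1-/- B-1a, and 1.19% and 0.648% in B-2. Both V genes were thus higher in wild-type B-1a than in B-2. In Igll1-/- B-1a, IGKV4-91 stood above B-2 but IGKV14-126 below it, so IGKV14-126 does not bear out the B-1a label of these libraries. Surface markers cannot be checked in DNA.

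The CDR3 sequences that carry the pattern are the following. The first block gives large clonotypes that B-2 cells also held, followed by B-1a clonotypes absent from B-2 that differ from them by 1 residue, with the change counted from 1 at the first residue of CDR3.
on IGKV14-126 IGKJ2, large: LQHGESPYT
on IGKV14-126 IGKJ2, E5K: LQHGKSPYT
on IGKV14-126 IGKJ2, G4S: LQHSESPYT
on IGKV14-126 IGKJ2, E5D: LQHGDSPYT
on IGKV14-126 IGKJ2, Q2H: LHHGESPYT
on IGKV14-126 IGKJ2, Y8W: LQHGESPWT
on IGKV4-91 IGKJ2, large: QQGSSIPRT
on IGKV4-91 IGKJ2, P7S: QQGSSISRT
on IGKV4-91 IGKJ5, large: QQGSSIPLT

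The second block gives the leading members that no clonotype with at least 10 times their reads matched at all but 1 residue of a CDR3 of equal length, and 1 whose CDR3 stood under another V gene as well, because they include the members with the most reads.
on IGKV8-19 or IGKV8-28, IGKJ5: QNDYSYPPLT
on IGKV8-21 IGKJ5: KQSYKLT
on IGKV4-91 IGKJ5: QQGSSIPRLT
on IGKV14-100 IGKJ5: VQYAQFPPLT
on IGKV5-39 IGKJ5: QNGHSFPPLT
on IGKV4-80 IGKJ1: HQWSSYTWT
on IGKV1-135 IGKJ5: WQGTHFPT
on IGKV4-61 IGKJ5: QQYHSYPPLT

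The members were small clonotypes. Together they held 1844 reads in wild-type B-1a replicate 1 and 1606 in replicate 2, which is 0.703% and 0.688% of productive reads. The median member had 4 reads in each library, 75 members had 2 reads in their lower library, 17 had at least 10 in both, and 1, KQSYKLT, had at least 100 in both. The reverse set was larger, with 1.80% and 1.53% of B-2 productive reads and medians of 7 and 5 reads. The shared set held 82.2% to 83.9% of the productive reads of the wild-type libraries, so the members stood outside the bulk of the B-1a repertoire.

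**Figure D1:**
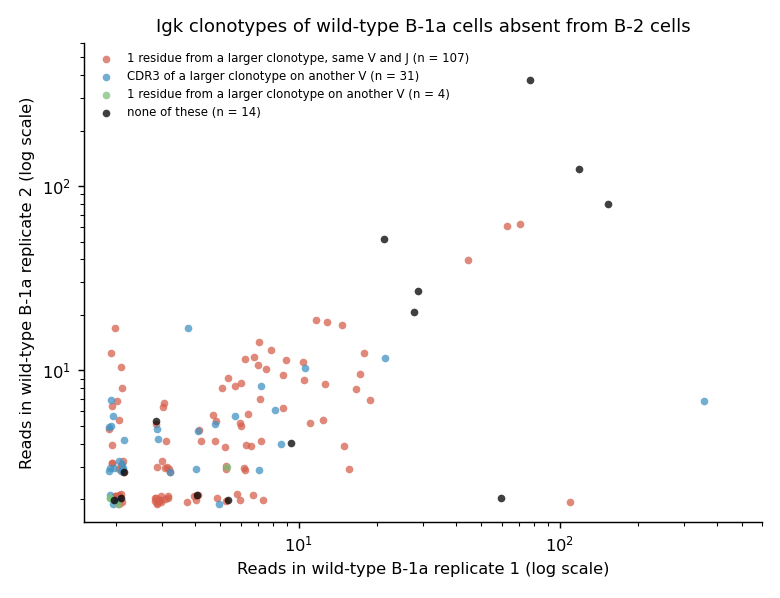
Reads of each of the 156 members in wild-type B-1a replicate 1 (x axis) and replicate 2 (y axis), both on log scales and with points shifted slightly so that ties show. Colours give the relation to larger B-1a clonotypes, and most points lie below 10 reads. The clonotypes with no 10 times larger clonotype at 1 substitution (black, n = 14) include KQSYKLT, the 1 member with at least 100 reads in both libraries.

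IGKV4-91 and IGKV14-126 led the V genes of the members. IGKV4-91 held 51 of the 156 (32.7%, Wilson 95% interval 25.8 to 40.4) and IGKV14-126 held 35 (22.4%, 16.6 to 29.6), together 86 (55.1%). In the reverse set no clonotype of 257 used IGKV4-91 and 1 used IGKV14-126, and in the shared set they held 2.87% and 1.94%. The order is not independent of the rule, because both V genes hold more of all B-1a clonotypes to begin with: 7.03% and 6.55% of all productive combinations were on IGKV4-91 in wild-type B-1a, against 1.54% and 1.40% in B-2. Of the 17 members with at least 10 reads in both libraries, 9 were on IGKV14-126 and 2 on IGKV4-91. Without the members that lay 1 residue from a larger clonotype, described below, IGKV4-91 held 20.4% of the 49 left and IGKV14-126 none.

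The other 70 members were spread thinly over V genes. IGKV3-7 and IGKV4-57-1 held 7 each, and IGKV4-53, IGKV8-30 and the label that names both IGKV4-59 and IGKV4-68 held 4 each. IGKV1-117 held 3, and 8 labels held 2 each, IGKV16-104 and IGKV4-72 among them. In all there were 41 V labels, 25 of them with 1 member. The effective number of V genes (the exponential of the Shannon entropy of the shares) was 13.4, against 61.2 in the reverse set and 57.2 in the shared set. The reverse set was led instead by IGKV14-111 with 12 of 257, IGKV1-117 with 9, and IGKV3-12, IGKV16-104, IGKV6-23 and the label of IGKV5-43 and IGKV5-45 with 8 each. All V genes matched to a RefSeq gene (43 of the 44 that the labels of the members name) lie on chromosome 6, where the *Igk* locus is.

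**Figure D2:**
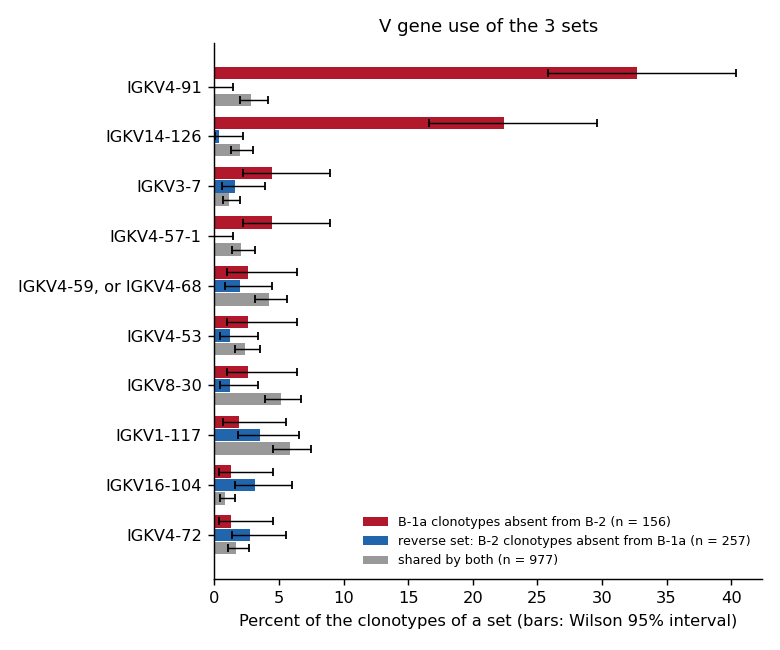
Percent of the clonotypes of each set on each of the 10 V gene labels with the most members; bars show the Wilson 95% interval. IGKV4-91 and IGKV14-126 stand at 32.7% and 22.4% of the members and under 3% of the reverse and shared sets.

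Among J genes IGKJ2, the second of the locus, held the most members, 68 (43.6%). Of all productive combinations in wild-type B-1a it held 23.8% and 26.2%, against 51.9% and 50.8% on IGKJ5. Many of the 68 resembled 1 IGKJ2 clonotype, LQHGESPYT on IGKV14-126, described below. Of them 19 lay 1 residue from it and 11 carried its CDR3 on other V labels. IGKJ5, the most distal, held 62 (39.7%) and IGKJ1, the nearest to the V genes, 22 (14.1%). IGKJ4 held 2, IGKJ3, a nonfunctional J gene, held 1, and 1 label named IGKJ1 and IGKJ5. The reverse set was more even, with 37.4% on IGKJ1, 32.3% on IGKJ2 and 28.8% on IGKJ5, and the shared set stood at 24.4%, 22.2% and 52.1%. The 2 leading V genes differed from each other in J use. IGKV14-126 members used IGKJ2 (20) and IGKJ1 (15) and never IGKJ5, whereas IGKV4-91 members used IGKJ5 (27) and IGKJ2 (23) and IGKJ1 once.

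CDR3 length was narrow. Of the members 132 (84.6%) had 9 residues, 13 had 10, 10 had 8 and 1 had 7, while in the reverse set 52.5% had 9 residues and 83.4% did in the shared set. The mean length did not separate the sets: 9.01 ± 0.42 residues (SD over 156 members) against 9.06 ± 0.83 (SD over 257). Proline stood at position 7 in 122 of the 132 CDR3s of 9 residues (92.4%), against 112 of 135 in the reverse set and 95.3% in the shared set. Threonine ended 138 of the 156 (88.5%), against 94.2% of the reverse set. Median identity to the V gene, the deposited percent for the row with most reads, was 96.0% and 94.3% in the 2 wild-type B-1a libraries for the members, 97.2% and 97.3% for the reverse set, and 98.9% and 98.9% for the shared set.

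Most members lay 1 residue away from a far larger B-1a clonotype. On the same V and J genes, 107 of the 156 (68.6%) differed at 1 position from a clonotype with at least 10 times their reads in at least 1 of the 2 wild-type B-1a libraries. The same relation held for 48.6% of the reverse set in the B-2 libraries and 49.9% of the shared set. The median member of the 107 had 0.150% of the reads of its larger clonotype. In 101 of the 107 (94.4%) the 2 amino acids can be reached from each other by changing 1 base of a codon, whereas 150 of all 380 ordered pairs of amino acids (39.5%) can. This share was 90.4% in the reverse set and 89.1% in the shared set. The residue was read from amino acids only, and whether the changes arose in cells or in PCR and sequencing was not tested.

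All 35 IGKV14-126 members belonged to this class, and 34 of them were within a 1-base change. The IGKJ2 clonotype LQHGESPYT was the larger relative of 19, and the IGKJ1 clonotype LQHGESPWT was that of 15. LQHGESPYT had 18300 and 17325 reads in wild-type B-1a, 123 and 138 in Igll1-/- B-1a, and 1025 in B-2 replicate 1. In B-2 replicate 2 it had no productive read but 914 reads in a row of the same V gene, J gene and CDR3 that the annotation calls unproductive. LQHGESPWT on IGKJ1 had 2621 and 2341 reads in wild-type B-1a, 70 and 260 in Igll1-/- B-1a, and 283 and 233 in B-2. Both relatives were therefore present in every group and highest in wild-type B-1a.

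The leading IGKV14-126 members were near copies of LQHGESPYT. LQHGKSPYT (E5K) had 63 and 63 reads in wild-type B-1a and none in Igll1-/- B-1a. LQHSESPYT (G4S) had 66 and 58 reads in wild-type B-1a and 0 and 2 in Igll1-/- B-1a. LQHGDSPYT (E5D) had 42 and 41 and none. The replicates of these 3 clonotypes were close to each other. Over both replicates together they stood at 0.354%, 0.348% and 0.233% of the reads of LQHGESPYT. LHHGESPYT (Q2H) with 13 and 19 reads and LQHGESPWT on IGKJ2 (Y8W) with 12 and 20 followed, neither with a read in Igll1-/- B-1a. LQHGESPWT on IGKJ2 differs from the large IGKJ1 clonotype of that CDR3 in the J label alone, and Y8W is not within a 1-base change. With any V and J gene this CDR3 had 522 reads in B-2.

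Of the 51 IGKV4-91 members, 41 lay 1 residue from a larger clonotype, all 41 within a 1-base change. Their relatives were QQGSSIPRT on IGKJ2 (10 members), QQGSSIPYT on IGKJ2 (9), QQGSSIPLT on IGKJ5 (9), QQGSSIPRT on IGKJ5 (6) and QQGSSILT on IGKJ5 (3). QQGSSIPLT, the largest IGKV4-91 clonotype, had 19597 and 16055 reads in wild-type B-1a, 1374 and 6847 in Igll1-/- B-1a, and 2445 and 1873 in B-2. QQGSSIPYT had 3339 and 2960, then 18 and 77, then 325 and 377. QQGSSISRT, a P7S neighbour of QQGSSIPRT, was the highest IGKV4-91 member of this class. It had 20 and 7 reads in wild-type B-1a and none in Igll1-/- B-1a.

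**Figure D3:**
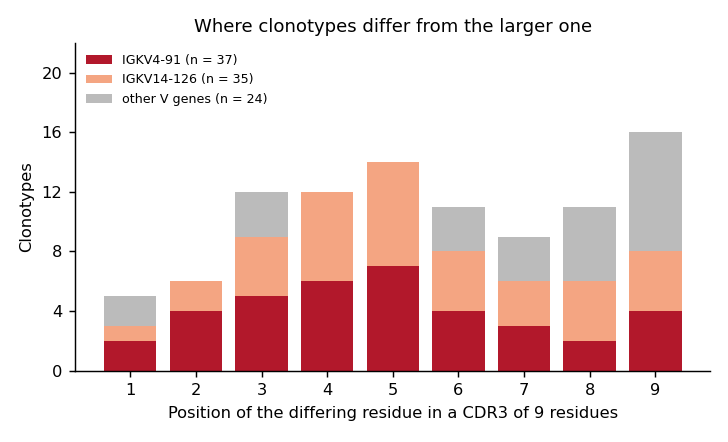
Number of members whose differing residue falls at each position of a CDR3 of 9 residues, counted from 1, stacked by V gene (IGKV4-91, 37; IGKV14-126, 35; other V genes, 24). The changes fall at every position, with 5 at position 1, 14 at position 5 and 16 at position 9.

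The changes of the members with 9 residues were spread over the whole CDR3. On IGKV4-91 the positions from 1 to 9 held 2, 4, 5, 6, 7, 4, 3, 2 and 4 of 37 members, and on IGKV14-126 they held 1, 2, 4, 6, 7, 4, 3, 4 and 4 of 35. No position was without a change in either V gene.

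The depth needed to see these near copies in B-2 can be read from their larger relatives. If a member stood at the same ratio to its relative in B-2 as in wild-type B-1a, it would have under 3 reads in each B-2 library for 95 of the 107 members, with medians of 0.778 and 0.622 reads. Among the 95 were 41 of 41 IGKV4-91 members, the highest at 1.91 reads, and 33 of 35 IGKV14-126 members. The exceptions on IGKV14-126 were LQHGKSPYT, at 3.63 and 3.23 reads, and LQHSESPYT, at 3.57 and 3.18, counting the unproductive row. The absence of all of them from B-2 was fixed by the rule, and at 1 to 3 such reads a clonotype can be either seen or missed.

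The other 10 members of this class would have 3 or more reads by the same ratio in at least 1 B-2 library. QQWSGYPFT on IGKV4-58 had 115 reads in wild-type B-1a replicate 1 and 2 in replicate 2, against 31 and 33 for its relative QQWSGYPWT (W8F), so that it was the smaller one in replicate 2 only. It had 1 and 0 reads in Igll1-/- B-1a. QQRSSYPLT on IGKV4-70 (H1Q of HQRSSYPLT) had 12 and 5 reads in wild-type B-1a, and QHFWSTPLA on IGKV12-41 (T9A) had 2 and 17. QQHYSTPWT on IGKV6-17 (Y8W) had 3 and 2. B-2 did hold some of these CDR3s under other labels. QQRSSYPLT with IGKJ5 had 11073 B-2 reads on other V labels. With any V and J gene, QQWSGYPFT had 1182 B-2 reads and QQHYSTPWT 4605. These members were uneven between the replicates or had few reads in both.

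A smaller class of 31 members (19.9%) carried the whole CDR3 and J gene of a larger B-1a clonotype under another V gene, which was IGKV14-126 for 15 of them and IGKV4-91 for 8. A further 4 lay 1 residue from a larger clonotype of another V gene. LQHGESPYT with IGKJ2 was listed on 11 V labels other than IGKV14-126, among them IGKV3-7 with 11 and 10 reads, IGKV4-60 with 8 and 4, and IGKV4-91 with 2 and 3. The identity to the assigned V gene of these rows was 86.5% to 92.9% in replicate 1. QQGSSIPLT gave 6 members on 5 V labels, QQHGESPYT 5 members on 5 and QQRSSYPLT 3 on 3. QQGSSIPRT on the label of IGKV4-59 and IGKV4-68 had 6 and 6 reads in wild-type B-1a and 0 and 2 in Igll1-/- B-1a. The median identity of the whole class was 91.3% and 90.3%, below the 97.9% and 96.9% of members 1 residue from a larger clonotype on their own V gene. Over all members there were 129 distinct CDR3s. The CDR3 of 62 members (39.7%) was found in B-2 with some V and J gene, and that of 94 (60.3%) was not. In the reverse set 83 of 257 CDR3s (32.3%) were found in wild-type B-1a in the same way.

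QQYHSYPPLT was split between V labels. On IGKV4-61 it had 356 and 7 reads in wild-type B-1a and 188 and 1 in Igll1-/- B-1a. On IGKV4-52 it had 1 and 383 in wild-type B-1a and 0 and 1 in Igll1-/- B-1a. Summed over its 4 V labels it had 359 and 391 reads in wild-type B-1a, 188 and 2 in Igll1-/- B-1a, and none in B-2. The CDR3 itself was thus close between the wild-type B-1a replicates, while the V gene it was assigned to differed between them.

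The 14 members without any of these relations (9.0%), which cover substitutions only and not inserted or deleted residues, held 27.4% and 45.5% of the reads of the set. In the reverse set 114 of 257 (44.4%) were of this kind, and in the shared set 41.1%. QNDYSYPPLT had 82 and 398 reads in wild-type B-1a and none in Igll1-/- B-1a. KQSYKLT had 114 and 130 reads and none in Igll1-/- B-1a. QQGSSIPRLT on IGKV4-91 had 147 and 82 reads and none in Igll1-/- B-1a. These 3 clonotypes were present in both wild-type B-1a replicates well above the 2 reads of the rule, and missing from both Igll1-/- libraries. Their absence from B-2 was fixed by the rule.

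Each of them has a relative that both other groups held, though not in every library. KQSYKLT differs by N5K from KQSYNLT, which had 213 and 232 reads in wild-type B-1a, 3 and 0 in Igll1-/- B-1a, and 564 and 307 in B-2. HQWSSYTWT on IGKV4-80 had 29 and 21 reads in wild-type B-1a and differs by P7T from HQWSSYPWT, with 169 and 90. HQWSSYPWT was higher elsewhere, with 329 and 299 reads in Igll1-/- B-1a and 529 and 236 in B-2. QQGSSIPRLT differs by I9L from QQGSSIPRIT, which had 398 and 807 reads in wild-type B-1a, 0 and 18 in Igll1-/- B-1a, and 2 and 134 in B-2. At its wild-type B-1a ratio of 19.3% HQWSSYTWT would have 63.5 and 57.7 reads in Igll1-/- B-1a, which the rule did not use, and it had none there. KQSYKLT at its ratio of 54.8% would have only 1.64 and 0 reads there, too few to read its absence. QQGSSIPRLT would have 0 and 3.42 at 19.0% of QQGSSIPRIT, and 8.83 and 44.0 at 0.642% of the shorter QQGSSIPLT. The 19.0% pools wild-type replicates that differed, with 147 and 82 reads of QQGSSIPRLT against 398 and 807 of QQGSSIPRIT.

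A further pattern joined 4 members of 10 residues that end in PPLT, a motif picked after their sequences were seen: QNDYSYPPLT, QQYHSYPPLT, VQYAQFPPLT and QNGHSFPPLT. Of the 13 members of 10 residues 4 ended so, against 1 of 54 in the reverse set and 6 of 52 in the shared set. VQYAQFPPLT on IGKV14-100 had 20 and 51 reads in wild-type B-1a and none in Igll1-/- B-1a. QNGHSFPPLT on IGKV5-39 had 28 and 27 in wild-type B-1a and 0 and 1 in Igll1-/- B-1a. Each was 1 proline longer than a clonotype of the same V and J genes, QQYHSYPPLT under its label IGKV4-52, where QQYHSYPLT had 1141 and 459 reads in wild-type B-1a. QNDYSYPLT had 1718 and 2281 reads in Igll1-/- B-1a. At its wild-type ratio of 7.72% QNDYSYPPLT would have 133 and 176 there, and it had none. The 7.72% pools wild-type replicates that differed, with 82 and 398 reads of QNDYSYPPLT against 2872 and 3344 of QNDYSYPLT. QNGHSFPLT had 585 and 2302 reads in Igll1-/- B-1a, which puts QNGHSFPPLT at 97.2 and 382.5 reads at the ratio of 16.6%, against the 0 and 1 seen. VQYAQFPPLT, at 13.4% of VQYAQFPLT, would have 9.23 and 0.267 reads there, too few in replicate 2 to read its absence. QQYHSYPPLT went the other way in replicate 1. In Igll1-/- B-1a it had 188 and 2 reads over its V labels, and QQYHSYPLT on IGKV4-52 had 4 and 113.

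WQGTHFPT on IGKV1-135 had 58 and 2 reads in wild-type B-1a and 1 and 1 in Igll1-/- B-1a, and is 1 residue shorter than WQGTHFPLT. IGKV4-57-1 gave QQYSGYPLT on IGKJ3, which had 4 and 2 reads in wild-type B-1a and 5 and 0 in Igll1-/- B-1a. The same V gene and CDR3 on IGKJ5 had 5545 and 3777 reads in wild-type B-1a and 1642 and 1767 in B-2. IGKV4-57-1 also gave QQYSGYPLFT on IGKJ4, which had 2 and 3 reads in wild-type B-1a and none in Igll1-/- B-1a. QQGSSIPLT, on the label of IGKJ1 and IGKJ5, was likewise a CDR3 with 4371 B-2 reads under other labels. The rest of this class had 2 to 10 reads in each wild-type B-1a library. Among them QQGSIPLT on IGKV4-91 alone was seen in Igll1-/- B-1a, with 0 and 4 reads. The leading members of IGKV4-57-1 and IGKV3-7 outside this class were of the same small size: QQYSGCPLIT (Y6C) had 2 and 5 reads in wild-type B-1a and none in Igll1-/- B-1a, and QHSWEIPHT (L8H) on IGKV3-7 had 7 and 4, then 0 and 1.

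Presence in the Igll1-/- B-1a libraries was not used by the rule. In Igll1-/- replicate 1, 27 members were found (17.3%, Wilson 95% interval 12.2 to 24.0) and in replicate 2, 46 (29.5%, 22.9 to 37.1), a mean of 23.4% ± 8.6 (SD, n = 2). Of the 156, 13 were in both, 47 in 1 and 96 in neither. The reverse set was found at 22.6% and 27.6%, a mean of 25.1% ± 3.6 (SD, n = 2), and the shared set at 83.5% and 81.2%. Members minus reverse set gave -5.26 percentage points in replicate 1 and 1.86 in replicate 2, a mean of -1.70 ± 5.04 (SD, n = 2; exact sign-flip test, two-sided, p = 1, and 0.5 is the smallest p this design allows). The 2 libraries differed in sign, so B-1a clonotypes absent from B-2 were not found more or less often in Igll1-/- B-1a than B-2 clonotypes absent from B-1a beyond the spread between these libraries.

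**Figure D4:**
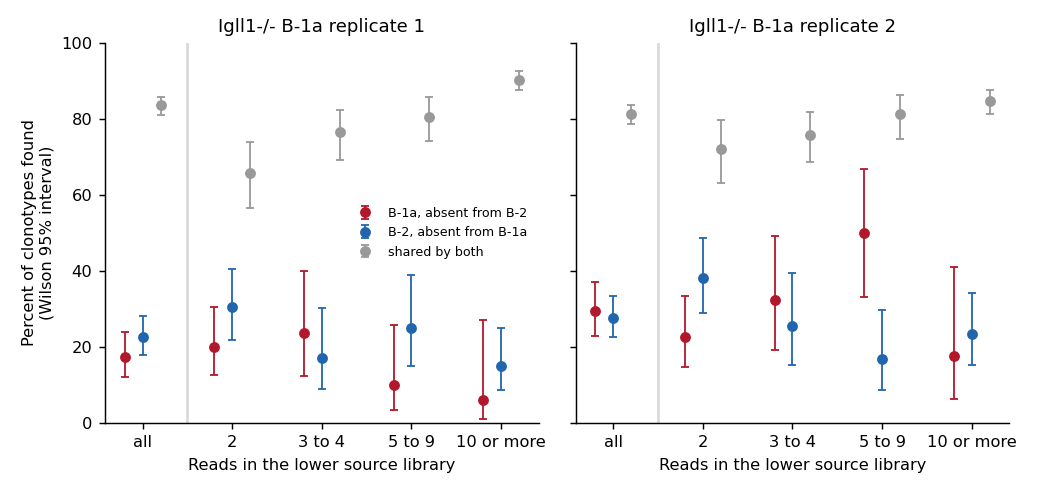
Percent of each set with at least 1 read in Igll1-/- B-1a replicate 1 (left) and replicate 2 (right), for all clonotypes and by the reads in the lower of the 2 libraries that chose them; bars are Wilson 95% intervals. The intervals of members and reverse set overlap in all but 1 class of replicate 2 (5 to 9 reads), and the shared set lies above both in every class.

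The members' reads in Igll1-/- B-1a were few. They summed to 262 in replicate 1 (0.126% of productive reads) and 104 in replicate 2 (0.0384%), against 1160 and 1068 for the reverse set. Of the 262 reads, 188 were QQYHSYPPLT, which leaves 74, and in replicate 2 it had 1, which leaves 103. The share found did not rise steadily with the reads in wild-type B-1a. Of the 75 members with 2 reads in the lower library 15 and 17 were found, of the 34 with 3 to 4 reads 8 and 11, and of the 17 with at least 10 reads 1 and 3. The class of 5 to 9 reads differed most between the Igll1-/- libraries, with 3 and 15 of 30 members found against 12 and 8 of 48 clonotypes of the reverse set. In the shared set 482 and 452 of the 534 with at least 10 reads in the 2 B-1a libraries were found.

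By V gene, IGKV4-91 members were found in 9 and 21 of 51 cases, IGKV14-126 members in 2 and 4 of 35 and members on other V genes in 16 and 21 of 70. By J gene, IGKJ5 members were found in 15 and 28 of 62, IGKJ2 members in 7 and 13 of 68 and IGKJ1 members in 4 and 5 of 22. IGKV14-126 was lowest in both libraries, and its reads over all clonotypes were also lowest there, at 0.257% and 0.268%. IGKV4-91 differed between the libraries in the members and in its share of all reads alike, with 2.07% and 3.68%.

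Among the 107 members 1 residue from a larger clonotype, presence in Igll1-/- B-1a was more frequent where the relative was larger there, though not at every step. Where the wild-type ratio called for under 0.1 read, 2 of 48 were found in replicate 1 and 2 of 32 in replicate 2. Where it called for 0.5 to 1 read, 1 of 11 and 2 of 11 were found, for 1 to 3 reads 5 of 9 and 15 of 21, and for 3 or more 5 of 7 and 8 of 10. The reverse set did not follow the same course in replicate 1, where 14 of 32 were found at 1 to 3 reads and 4 of 19 at 3 or more, while in replicate 2 it had 18 of 36 and 20 of 32. All 9 members next to QQGSSIPLT, which had 6847 reads in Igll1-/- replicate 2, were found there, and 1 of them in replicate 1, where it had 1374. Of the 19 next to LQHGESPYT, with 123 and 138 reads, none was found in replicate 1 and 1 was found in replicate 2.

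**Figure D5:**
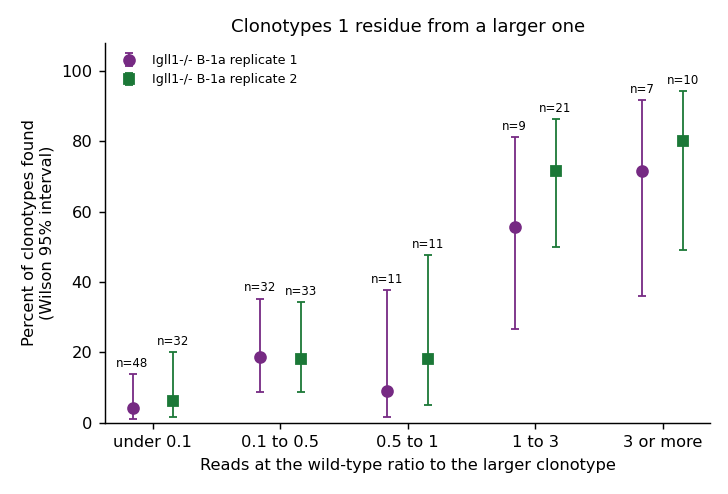
Percent of the 107 members 1 residue from a larger clonotype that were found in Igll1-/- B-1a, by the reads they would have at the wild-type B-1a ratio to that clonotype; n is the number of members and bars are Wilson 95% intervals. The percent is 4.2% and 6.2% under 0.1 read and 71.4% and 80.0% at 3 reads or more, with a dip to 9.1% in replicate 1 at 0.5 to 1 read.

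Of the 14 members with no such larger clonotype at 1 substitution, 2 were found in replicate 1 and 3 in replicate 2. The 13 members in both Igll1-/- libraries were mostly of few reads in every library. QQRSSYPLT on IGKV4-91 had 21 and 12 reads in wild-type B-1a and 8 and 5 in Igll1-/- B-1a, and its CDR3 was that of an IGKV4-57 clonotype with 4908 and 954 reads in Igll1-/- B-1a. QQGSSIPLT on IGKV15-103 had 7 and 8 reads, then 3 and 16. QQWSSYTLT on IGKV4-53, a P7T neighbour of QQWSSYPLT, had 2 and 2, then 6 and 5. Both members thus had a large relative in the knockout libraries, QQGSSIPLT of IGKV4-91 and QQWSSYPLT with 7146 and 13719 reads. QQGNTLPWT on IGKV4-91 with IGKJ1 had 3 and 5, then 4 and 3, and is the CDR3 of a larger IGKV10-96 clonotype. QQWDYPLT on IGKV4-86 (N4D), QHSWEIPLT on IGKV3-7 with IGKJ2 (Y8L), FQGSHVPYM on IGKV1-117 (T9M) and QQRSSYPPT on IGKV4-91 (L8P) had 1 or 2 reads in each Igll1-/- library, and WQGTHFPT and 3 more IGKV4-91 members (QQGSIIPLT, QQCSSKPLT and QQGNSIPRT) had 1 in each.

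The leading clonotypes of the reverse set had as many reads as the leading members. HQRSSYLT on IGKV4-70 had 168 and 199 reads in B-2 and 120 and 1 in Igll1-/- B-1a. LQYDEFPT on IGKV14-111 had 104 and 163 in B-2 and none in Igll1-/- B-1a. QQYWSTPPLT on the label IGKV13-84 or IGKV13-85 had 164 and 94 and none. As in the members, the largest were absent from at least 1 Igll1-/- library or nearly so. QQYWSTYT on that label with IGKJ2 had 100 and 101 in B-2 and none in Igll1-/- B-1a, and QQRSSYPT on IGKV4-57 had 2 and 233 in B-2 and 1 and 0 in Igll1-/- B-1a.

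A check that keeps 1 replicate out of the choice asked whether the split repeats. Clonotypes with at least 2 reads in wild-type B-1a replicate 1 and none in B-2 replicate 1 numbered 870. Of these 42.6% (Wilson 95% interval 39.4 to 46.0) were found in B-1a replicate 2 and 30.3% (27.4 to 33.5) in B-2 replicate 2. Chosen in replicate 2, 823 clonotypes were found at 47.9% (44.5 to 51.3) in B-1a replicate 1 and 32.8% (29.7 to 36.1) in B-2 replicate 1. The difference was 12.3 and 15.1 percentage points. The reverse choice gave 46.5% and 46.5% in B-2 against 28.6% and 26.0% in B-1a.

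Of the IGKV4-91 clonotypes chosen in 1 B-1a replicate, 71.3% and 76.4% were found in the other B-1a replicate and 23.0% and 26.0% in the held-out B-2 replicate. For IGKV14-126 the figures were 73.8% and 74.4% against 15.4% and 24.4%. These V genes were singled out on all 4 wild-type libraries, the held-out ones included, so the shares are a description and no independent check.

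Unproductive clonotypes, which the rule left out, were compared between wild-type B-1a and B-2 by V gene. Of 32 V genes tested, edgeR's quasi-likelihood test called 3 (9.38% of those tested) at a Benjamini-Hochberg adjusted p under 0.05, and 5 had an unadjusted p under 0.05. IGKV4-91 had 34 and 26 unproductive clonotypes in wild-type B-1a, 6 and 15 in Igll1-/- B-1a and 7 and 7 in B-2, which is a log2 difference of 2.14 (SE 0.45, adjusted p = 0.0228 by edgeR). IGKV14-126 had 29 and 32 in wild-type B-1a, 0 and 1 in Igll1-/- B-1a and 6 and 9 in B-2, which is a log2 difference of 2.08 (SE 0.42, adjusted p = 0.0228 by edgeR). IGKV6-23 was lower in wild-type B-1a, with 4 and 3 against 14 and 13 in B-2, which is a log2 difference of -1.84 (adjusted p = 0.0228 by edgeR). The V genes that led the members were thus the 2 called higher among unproductive clonotypes. These counts include clonotypes of 1 read. With a minimum of 2 reads per clonotype only 5 V genes entered the test, and neither IGKV4-91 nor IGKV14-126 was among them. IGKV9-128 had a log2 difference of 1.11 that did not pass (adjusted p = 0.076 by edgeR), and 3 V genes were called higher with TMM, with a replicate block or in the 4 wild-type libraries alone.

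Most of these unproductive clonotypes lay close to productive ones. Of the 34 and 26 IGKV4-91 clonotypes in wild-type B-1a, 20 and 18 were 1 residue from a productive clonotype with at least 10 times the reads, and of the 29 and 32 on IGKV14-126, 20 and 23 were. The part of these near copies in the difference was not tested. With DESeq2 no V gene was called (4 had an unadjusted p under 0.05), and IGKV4-91 and IGKV14-126 had log2 differences of 2.40 and 2.32, both at an adjusted p of 0.107. Leaving out any 1 of the 4 wild-type libraries also left none called, with 3 to 5 V genes at an unadjusted p under 0.05. In these fits the lone library of a group was assumed to vary like the other groups. The log2 difference of IGKV4-91 stayed between 1.98 and 2.29 in them, and that of IGKV14-126 was 1.83 and 2.38 without B-2 replicate 1 or 2. Without either wild-type B-1a replicate IGKV14-126 had too few clonotypes to enter the test. With reads in place of clonotypes IGKV14-126 turned to a log2 difference of -2.52 (adjusted p = 0.514 by edgeR), where 1 row, the unproductive LQHGESPYT of B-2 replicate 2, held 914 of 923 reads.

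The rule draws a line through a continuum of low counts. Just inside it, 18 members had 2 reads in each wild-type B-1a library. Just outside it, 185 clonotypes absent from B-2 had 1 read in each, 147 had 1 read in one library and at least 2 in the other, and 113 had at least 2 in both B-1a libraries but a single read in 1 or both B-2 libraries. A further 700 had at least 2 reads in 1 B-1a library and none in the other, the highest with 959. In Igll1-/- B-1a 30.1% and 38.9% of the 113 with a single read in B-2 were found, and 12.4% and 21.6% of the 185 with 1 read in each B-1a library.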

How the data were processed

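Genomic DNA of sorted cells was amplified by multiplex PCR with a degenerate Vκ primer and added primers for some V genes, IGKV4-91 among them, and products of 100 to 280 bp were kept. The primers bear on the share of a V gene. The authors annotated reads with IMGT/HighV-QUEST and deposited 1 table per library with a count of reads per clonotype and the percent identity to the V gene. Versions, genome build and error correction are not given in the sources used here. The labels name another sequencer for *Igk* than the methods do. Library names differ in style between replicate 1 and 2 of both wild-type groups, and what that marks is not stated.

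Here reads were summed per V label, J label and CDR3 over productive rows. The 4 *Igh* libraries were not used here. Unproductive clonotypes per V gene were tested with edgeR 4.0.16 (all 6 *Igk* libraries, a V gene entering with 10 or more clonotypes in 2 or more libraries, total unproductive clonotypes as library size) and DESeq2 1.42.0 as an alternative, in R 4.3.3. Scripts were tested on simulated data. Other values came from Python 3.11.15 with pandas 2.3.3 and scipy 1.17.1. Intervals are Wilson 95%. V gene names were matched to RefSeq GRCm38.p6, and no coordinate is given.

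The members and lists were chosen with earlier results of these data known. Named clonotypes are the 15 with the highest mean percent in wild-type B-1a, the 10 highest of those in both Igll1-/- libraries, the 3 leading ones of each of the 5 leading V genes, the 5 leading ones of the reverse set, and, chosen after their values were seen, larger relatives and members above 3 reads at the same ratio. Alternatives tried were other read minimums, 1 read allowed in the other group, single V labels, J gene and CDR3 alone, near copies left out, and each library left out. For the edgeR test they also included a minimum of 2 reads per clonotype, reads in place of clonotypes, TMM, no filter, a replicate block and wild-type libraries alone. Replicates are numbered in the labels, and nothing says whether libraries came from separate mice, so p-values measure the spread between these libraries. The chi-square per degree of freedom between replicates was 30.6 to 145, above sampling noise. With 2 replicates and a correlation of deviations of 0.072 the numbers do not pair the groups.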

Additional observations from a re-analysis of the deposited data

How the results depend on the processing

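The number of members rests on the read minimum and on depth: 488 at 1 read, 47 at 5, 17 at 10, 269 with 1 read allowed in each B-2 library, 49 without near copies, and 156 to 606 when 1 library was left out. IGKV4-91 fell from 32.7% of the members to 20.1% at 1 read, 11.8% at 10 (9 of those 17 were on IGKV14-126) and 20.4% without near copies, and ranged from 15.5% to 32.7% with 1 library left out. With J gene and CDR3 alone there is no V gene to count. The percent of members found in Igll1-/- B-1a was 11.8% at 10 reads and 13.5% where at least 2 reads counted as found (chosen after seeing the data), and 15.8% to 33.2% with 1 library left out.

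Members minus reverse set turned positive at 5 reads (3.57 percentage points) and without near copies (4.0), and ranged from -19.1 to 17.7 with 1 library left out: 17.7 and 14.2 without B-2 replicate 1 or 2, and 1.86 without Igll1-/- replicate 1. Leaving out a library of 1 group loosens one set's choice and the other's absence, so these values compare sets chosen at unequal depth. Mean CDR3 length, members minus reverse set, was -0.052 residues and -0.21 at 10 reads, and ranged from -0.095 to 0.033 with 1 library left out (0.020 without wild-type B-1a replicate 2, 0.033 without B-2 replicate 2). In the held-out check the mean difference of 13.7 percentage points was 4.56 at 1 read and 5.65 at 10.

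Of the V genes called among unproductive clonotypes, 3 in all, none was called with DESeq2 (4 at an unadjusted p under 0.05), 0 with reads in place of clonotypes (7 at an unadjusted p under 0.05), and 0 to 5 with 1 library left out. With a replicate block 4 were called, and with a minimum of 2 reads per clonotype 2 of only 5 tested. Absence judged over unproductive rows too, and overlapping V labels counted as present, both chosen after seeing the data, left 153 members each. A count of 0 in B-2 bounds a share of reads, and 139 of the 156 members had under 10 reads in a wild-type B-1a library.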
